A study of Mus musculus with 3 samples.

Results

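Cd69, S1pr1, S1pr4, S1pr5, Cd44, Lef1 and Zfp683 are genes known for the retention of lymphocytes in tissue or for their circulation through blood and lymph, and they are described here in the immune cells of the healthy mouse kidney. The 7 genes were chosen by name among the 32886 genes of the count table. This rule uses no measured value, though earlier results of these data were known when the genes were chosen. The cells came from kidneys of untreated wild-type male C57BL/6J mice aged 10 weeks, which were perfused, divided by dissection into the cortex and the outer (OM) and inner medulla (IM), and digested with collagenase and DNase. Living CD45+ cells, CD45 being the surface protein common to immune cells, were sorted, and their RNA was sequenced cell by cell in droplets. The 20266 cells carry the study's 23 cluster names and come from 3 datasets, named Aachen, Bonn and Hamburg after the place where the mice were housed. Each compartment of each dataset counts as 1 library, so that there are 9, with the dataset as replicate (n = 3). The number of mice behind a library is not given in the sources used here, so that the spread between datasets holds differences between mice, sites and sample handling together.

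Sphingosine 1-phosphate (S1P) is abundant in blood and lymph and scarce in tissue, and lymphocytes follow this gradient out of an organ with the receptor S1PR1. CD69 binds S1PR1 and draws it from the cell surface, which holds a lymphocyte in place, and CD69 also appears soon after activation of the cell. S1PR5 guides the exit of natural killer (NK) cells and of patrolling monocytes, and S1PR4 is a further S1P receptor of blood cells. CD44, the receptor of hyaluronan, is high on T cells that have met antigen. LEF1 acts with TCF1 (Tcf7) as a transcription factor of naive and central memory T cells. Zfp683 encodes Hobit, a transcription factor of lymphocytes that stay in tissue, where it acts with BLIMP-1 (Prdm1) against genes of tissue exit.

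In the GENCODE annotation of the mouse genome build GRCm38 (mm10), all 7 genes are protein-coding. Cd69 lies at chr6:129267325-129275436 on the minus strand and has 5 coding segments. S1pr1 (chr3:115710433-115715072), S1pr4 (chr10:81497747-81500132) and S1pr5 (chr9:21242912-21248443) lie on the minus strand, and each has its coding sequence in 1 segment. Cd44 (chr2:102811141-102901665, minus strand) has 19 coding segments, Lef1 (chr3:131110471-131224356, plus strand) has 13 and Zfp683 (chr4:134053838-134058996, plus strand) has 5.

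The 250 bases before the start of S1pr4 and S1pr5 are shown because these receptors differed in breadth, the former being read in every lymphoid cluster and the latter in few. They are taken from RefSeq on GRCm38.p6, which gave a start for 4 of the 7 genes. Both lie on the minus strand and are written 5′ to 3′ along the gene, S1pr4 at chr10:81500138-81500387 and S1pr5 at chr9:21248444-21248693. Capitals mark CACCC, the core letters bound by factors of the KLF family such as KLF2, or its reverse complement GGGTG.
S1pr4: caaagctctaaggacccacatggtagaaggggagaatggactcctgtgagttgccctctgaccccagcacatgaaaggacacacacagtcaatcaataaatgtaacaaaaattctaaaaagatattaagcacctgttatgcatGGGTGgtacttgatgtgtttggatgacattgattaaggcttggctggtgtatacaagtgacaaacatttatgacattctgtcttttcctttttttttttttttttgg
S1pr5: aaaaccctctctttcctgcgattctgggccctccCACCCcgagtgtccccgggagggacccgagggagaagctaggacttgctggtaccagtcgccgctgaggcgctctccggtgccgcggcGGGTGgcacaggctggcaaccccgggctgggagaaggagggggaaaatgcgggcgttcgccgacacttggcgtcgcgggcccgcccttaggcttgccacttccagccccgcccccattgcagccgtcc
The S1pr4 sequence holds 1 such match and the S1pr5 sequence 2, and 52.0% of 32851 promoters of the same length hold at least 1 on either strand. GC content was 38.8% before S1pr4, at or above that of 10.3% of the promoters, and 69.2% before S1pr5, at or above that of 90.2%. The matches are a description of these letters and show no binding.

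The libraries held 621 to 3677 cells and 2122810 to 15267100 UMIs, the counted molecules. Depth differed between datasets, with median UMIs per cell of 887 (Aachen), 3290.5 (Bonn) and 2944 (Hamburg). Each Aachen compartment carries 2 barcode suffixes, all Hamburg cells carry 1, and 219 of 20042 barcodes occur in more than 1 library. The lineage markers of a class were read mostly in that class: T cell markers reached 25.7 to 50.6 UMIs per 10000 in the libraries of T cells and at most 2.43 in those of resident macrophages, and B cell markers reached 56.4 to 116 in B cells and at most 5.13 in T cells. The Aachen lymphocytes stood apart by their macrophage markers, which reached 12.9 to 35.5 UMIs per 10000 in T cells, 21.5 to 45.4 in ILC2, 14.8 to 25.5 in NK cells and 6.61 to 28.2 in B cells, against at most 1.83, 4.85, 7.49 and 7.93 in Bonn and Hamburg. In the Aachen ILC2 these reached higher than the ILC2 markers, at 15.8 to 23.0, and in the Aachen OM library of T cells they were above the T cell markers, at 35.5 against 25.7. Monocytes held a median of 58.0 UMIs per 10000 of macrophage markers against 35.8 of monocyte markers. The part of these markers in the lymphocyte values was not tested.

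Levels are given as CPM, the UMIs of a gene per 1000000 UMIs of a cluster in a library, averaged over compartments within a dataset, with values listed in the order Aachen, Bonn, Hamburg and the mean ± SD over these datasets. Because the clusters were made from the same genes, levels between clusters are a description without a test. Unless said otherwise, the dataset ranges of clusters that neighbour each other in an order overlap.

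**Figure D1:**
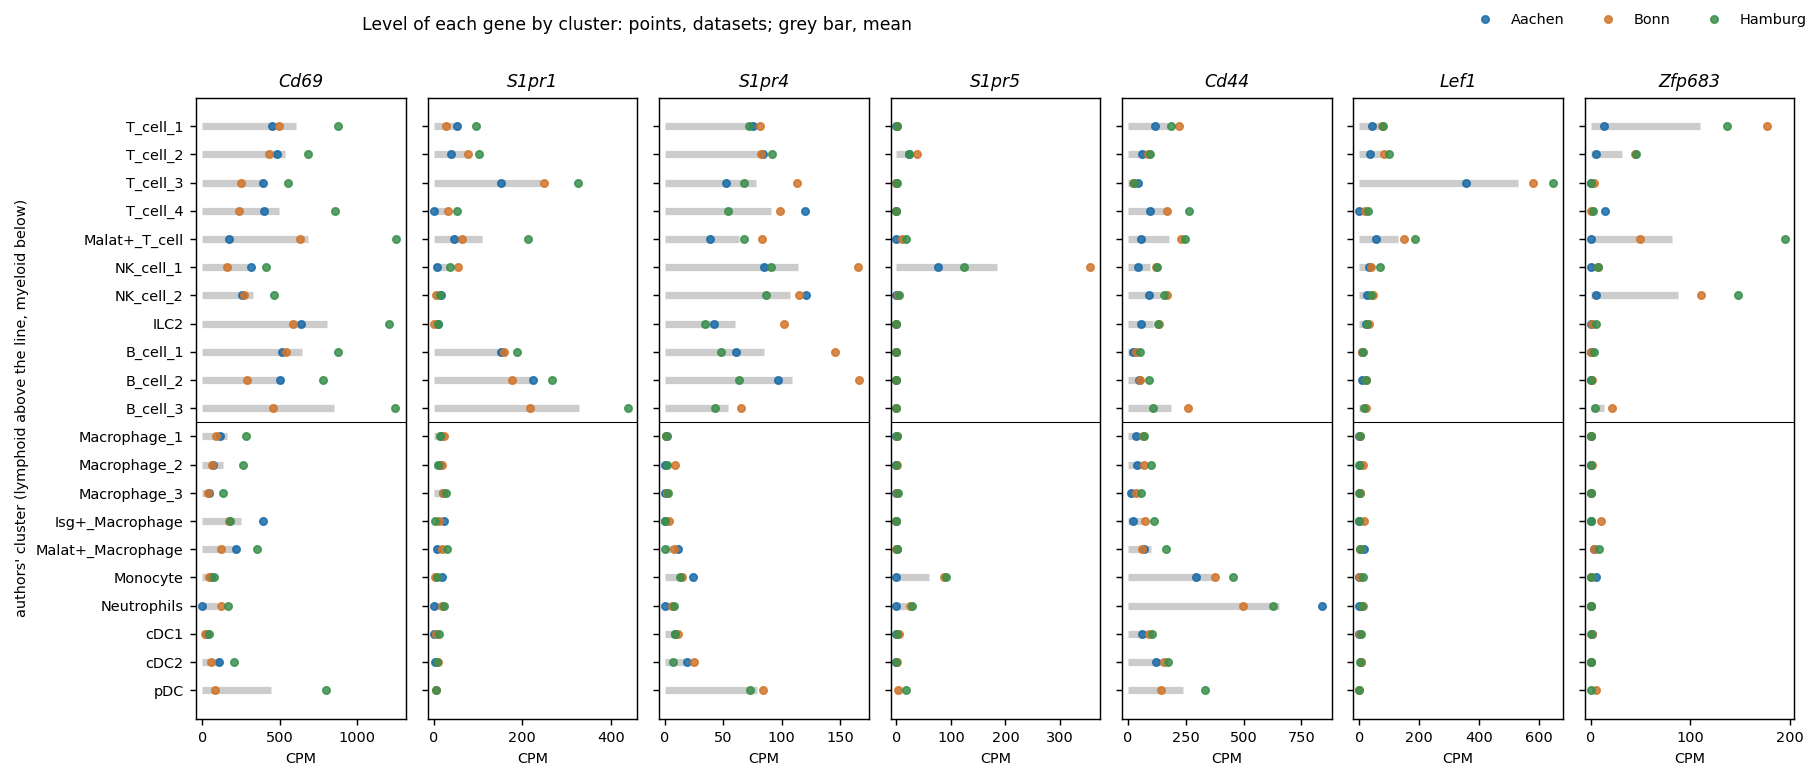
Level of each of the 7 genes (x axis, CPM, a linear scale of its own in each panel) in 21 of the 23 clusters (y axis; proliferating and undefined cells are not drawn); points are the 3 datasets and grey bars their mean. Lef1 stands apart in T_cell_3 and Cd44 in neutrophils. S1pr5 has its highest mean in NK_cell_1, whose dataset range overlaps that of monocytes, whereas Cd69 and S1pr4 are read across the lymphoid clusters.

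Among the S1P receptors, S1pr1 was led by B_cell_3, with 218 CPM in Bonn and 437 in Hamburg, and by T_cell_3, with 151, 249 and 325 CPM (242 ± 87.0). B_cell_2 (223 ± 45.0 CPM) and B_cell_1 (166 ± 19.6 CPM) followed. The Bonn level of B_cell_3 rests on 10 cells of cortex, since OM and IM held only 6 and 5, and Aachen had too few cells. This holds for every B_cell_3 level below, and the cells of that cluster were shallow, with a median of 780 UMIs. S1pr1 was at 72.0 ± 31.6 CPM in T_cell_2, at 59.0 ± 34.0 in T_cell_1, at 33.1 ± 23.9 in NK_cell_1, at 12.5 ± 5.88 in NK_cell_2 and at 6.04 ± 5.23 in group 2 innate lymphoid cells (ILC2), tissue lymphocytes that release type 2 cytokines. T_cell_3 was thus higher in S1pr1 than the other numbered T cell clusters in every dataset. The means of the resident macrophage clusters lay between 13.4 and 23.5 CPM.

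S1pr4 was read in all lymphoid clusters, whose dataset ranges overlapped from one to the next. NK_cell_1 was at 84.99, 166 and 90.9 CPM (114 ± 45.0), B_cell_2 at 109 ± 52.6, NK_cell_2 at 107 ± 18.4, T_cell_2 at 86.0 ± 5.23, T_cell_1 at 76.1 ± 5.01 and B_cell_3, the lowest lymphoid cluster, at 54.1 ± 15.99. Plasmacytoid dendritic cells (pDC), at 78.5 ± 7.91 CPM, stood among them. After B_cell_3 the ranges no longer overlapped, and monocytes (17.1 ± 5.78 CPM), cDC2 (16.8 ± 8.88) and cDC1 (9.23 ± 1.56), the conventional dendritic cells (cDCs), were lower. The 4 resident macrophage clusters were at 0.894 to 3.26 CPM.

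S1pr5 was the most restricted of the 3 receptors. NK_cell_1 held 75.5, 356 and 124 CPM (185 ± 149.9), and NK_cell_2 held 0, 2.45 and 5.08 CPM. Monocytes, at 0, 87.5 and 90.2 CPM, and T_cell_2, at 22.8, 37.5 and 23.3 CPM (27.9 ± 8.34), came next. T_cell_1 was at 0.464 ± 0.670 CPM and T_cell_3 at 0.108 ± 0.188. No UMI of S1pr5 was found in the 9 libraries of B cells, where 3 counts would amount to 0.917 to 13.3 CPM.

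Genes of the residency and circulation lists given below also differed between the NK clusters, not all in the same direction. NK_cell_1 held 277 ± 150.3 CPM of Eomes, a transcription factor of conventional NK cells. NK_cell_2 held 23.1 ± 21.7 CPM of Eomes, but 557 ± 144 of Cxcr6, a chemokine receptor of resident lymphocytes, against 20.3 in NK_cell_1. Itga1, the collagen-binding integrin subunit CD49a, was at 104 ± 86.2 CPM in NK_cell_2 and 11.3 ± 10.7 in NK_cell_1. Xcl1, a chemokine that attracts cDC1, was at 4436 ± 554 CPM in NK_cell_2 and 1066 ± 680.0 in NK_cell_1. Other list genes ran against this division. The residency gene Prdm1 was at 59.8 CPM in NK_cell_1, second only to Malat+_T_cell and so above NK_cell_2. The circulation gene Itgb7 was at 326 CPM in NK_cell_2, second only to T_cell_4 and so above NK_cell_1.

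Zfp683 divided the NK clusters in the direction opposite to S1pr5. NK_cell_2 held 5.50, 111 and 148 CPM (88.0 ± 73.8), against 0, 7.23 and 7.36 in NK_cell_1. The highest cluster was T_cell_1, with 13.6, 178 and 137 CPM (109.5 ± 85.5), and T_cell_2 held 5.29, 44.7 and 45.2 CPM. T_cell_3 was at 1.48 ± 1.94 CPM. Aachen was lowest, or tied for lowest at 0, in 17 of the 20 clusters that all datasets share, so that the SD of Zfp683 is mostly the gap between Aachen and the other datasets.

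Lef1 was highest in T_cell_3. This cluster held 358, 582 and 649 CPM (529.7 ± 152), a range that did not overlap with any other cluster's. The Malat+_T_cell cluster followed at 131 ± 68.5 CPM, then T_cell_2 at 72.2 ± 33.3 and T_cell_1 at 64.8 ± 20.6. NK_cell_1 was at 46.8 ± 19.1 CPM, NK_cell_2 at 38.0 ± 9.76, ILC2 at 27.2 ± 5.05 and B_cell_1 at 10.7 ± 1.41, and every myeloid cluster was at or below 7.44.

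T_cell_3 also led all clusters in Tcf7, at 477 ± 226 CPM, and led the T cell clusters in Ccr7 (643 ± 507 CPM), the receptor that brings cells to lymph nodes. In T_cell_1 Ccr7 was at 36.2 ± 30.9 CPM. Cxcr6 ran opposite, with 658 ± 320.5 CPM in T_cell_1, 471 ± 195 in T_cell_2, 1033 in T_cell_4 and 25.1 ± 7.90 in T_cell_3. The transcription factor gene Klf2, which drives S1pr1, was at 2229, 1179 and 4823 CPM in T_cell_3 and at 1252, 116 and 2567 in T_cell_1, higher in T_cell_3 in every dataset. T_cell_3 held both Cd8b1 (549 CPM) and Cd4 (78.3 CPM), T_cell_2 was rich in Cd8b1 (1157 CPM), and T_cell_1 held Cd4 at 169 CPM.

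Cd44 was highest in some of the myeloid clusters. Neutrophils held 838, 496 and 625 CPM (653 ± 173), a range above that of every other cluster. Only Hamburg, at 625 CPM, had libraries with 30 or more neutrophils, so the Aachen and Bonn values rest on few cells. Monocytes held 295, 376 and 454 CPM (375 ± 79.5). Among lymphoid clusters with all 3 datasets, Malat+_T_cell (178 ± 104 CPM), T_cell_4 (177 ± 85.2) and T_cell_1 (174 ± 52.8) came first, NK_cell_2 (137 ± 42.2) and ILC2 (107 ± 42.8) lay below them, and T_cell_2 was at 80.7 ± 17.9. T_cell_3, at 43.7, 23.4 and 26.3 CPM (31.2 ± 11.0), was the lowest T cell cluster by its mean, below T_cell_1 in every dataset. The resident macrophage clusters were low, at 35.8 (Macrophage_3) to 69.8 CPM (Macrophage_2).

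Cd69 was read in all lymphoid clusters. B_cell_3 had the highest mean, with 458 CPM in Bonn and 1244 in Hamburg. ILC2 held 637, 586 and 1206 CPM (809.5 ± 344) and Malat+_T_cell 171, 632 and 1255 (686 ± 544). B_cell_1 held 513, 543 and 879 CPM (645 ± 203), and T_cell_1 454, 494 and 880.4 CPM (609 ± 236). T_cell_3 was at 398 ± 152 CPM, and the NK clusters were the lowest lymphoid ones, NK_cell_2 at 329.8 ± 115 CPM and NK_cell_1 at 297 ± 128 CPM. Apart from pDC, with 84.1 CPM in Bonn and 799.9 in Hamburg, the means of the myeloid clusters lay below these, with Macrophage_1 at 161 ± 106 CPM, Macrophage_2 at 134 ± 114, cDC2 at 122 ± 75.4, Macrophage_3 at 70.0 ± 53.3, monocytes at 57.1 ± 17.7 and cDC1 at 29.0 ± 13.3.

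The Cd69 level depended on the dataset in nearly every cluster. Hamburg was highest in 19 of the 20 clusters that all datasets share, including all 10 lymphoid ones, and Bonn was lowest in 15. The summed level of 14 immediate early genes (Fos, Jun, Egr1, Hspa1a and others), which dissociation of a tissue can induce, was likewise highest in Hamburg, and it was lowest in Bonn, in all 6 classes tested below. In T cells that level was 132, 58.3 and 243 UMIs per 10000 beside 459, 412 and 731 CPM of Cd69, and in resident macrophages it was 195, 71.7 and 472 beside 99.2, 65.5 and 251 CPM. Hamburg was highest in both measures in T cells, B cells, NK cells, ILC2, resident macrophages and cDCs. The part of these genes in the Cd69 level was not tested.

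**Figure D2:**
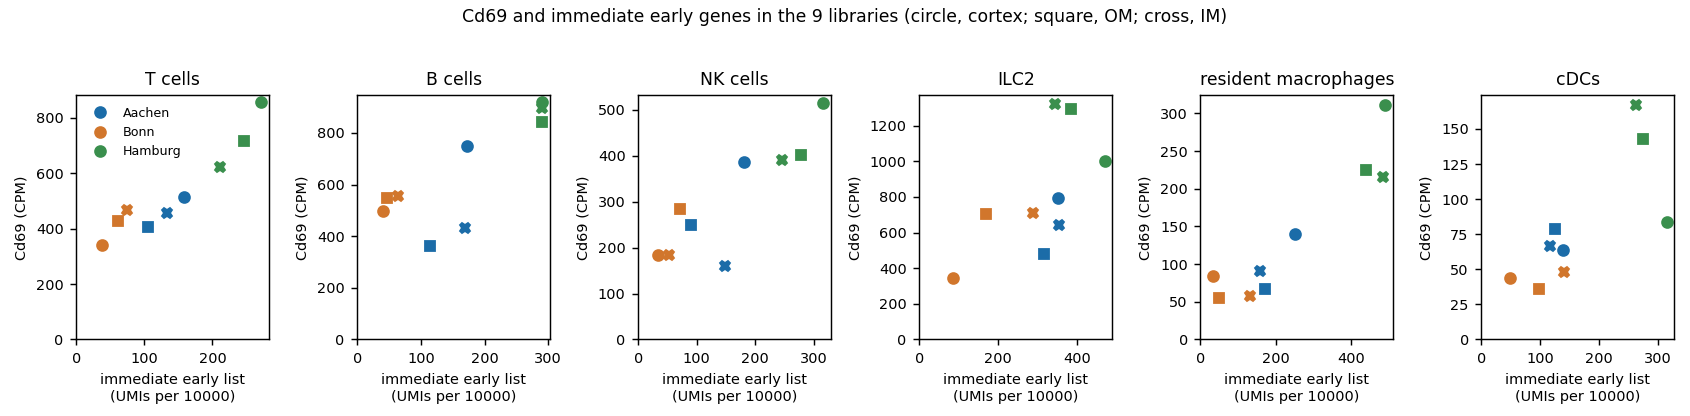
Cd69 (y axis, CPM) against the summed level of 14 immediate early genes (x axis, UMIs per 10000) in the 9 libraries of each cell class; colours are datasets, circles cortex, squares OM and crosses IM. The mean of the Hamburg libraries is the highest on both axes in all 6 classes. In T cells the libraries of each dataset keep the same order on both axes. This does not hold in every class: cortex and medulla run opposite on the axes in Bonn resident macrophages, Hamburg ILC2, and Aachen and Hamburg cDCs. They also do so in Hamburg B cells, whose immediate early levels are nearly equal.

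To set depth aside, each cell was thinned to 500 UMIs, which left out 810 Aachen, 0 Bonn and 4 Hamburg cells. The mean share of T_cell_3 cells with a UMI of Lef1 was then 22.6% (68.5% unthinned), against 3.52% in T_cell_2, 3.29% in T_cell_1 and 0.230% in Macrophage_1, a cell type that should lack it. Unthinned depth was a median of 3735 UMIs in T_cell_3 and 1661.5 in Macrophage_1. S1pr1 was found in 12.5% of T_cell_3 (47.0% unthinned), in 7.40% of B_cell_1 and in 2.75% of T_cell_1 cells, against 1.07% in Macrophage_1. S1pr5 was found in 10.8% of NK_cell_1 cells (34.5% unthinned), in 3.74% of monocytes and in 1.09% of T_cell_2 cells, and no UMI was found in 3574 thinned B_cell_1 cells (0% unthinned), which allows up to 0.0839% of cells with a UMI at this depth (3 counts, counting error only) and sets no limit on cells that express the gene. Zfp683 was found in 5.80% of NK_cell_2 and 5.09% of T_cell_1 cells (21.02% and 24.0% unthinned), with 0.342%, 7.97% and 6.97% of T_cell_1 cells in the 3 datasets. Thinned cells therefore kept the low Zfp683 of Aachen. Cd44 was found in 26.9% of neutrophils (63.6% unthinned), with 16.7%, 37.3% and 26.9% in the 3 datasets. It was found in 9.08% of T_cell_1 and in 1.52% of T_cell_3 cells. Cd69 was found in 47.1% of B_cell_3 cells (59.3% unthinned), which came from Bonn and Hamburg. It was found in 26.7% of ILC2 and 23.5% of T_cell_1 cells (57.2% and 53.8% unthinned), against 2.28% in cDC1. S1pr4 was found in 5.24% of NK_cell_1 cells (24.7% unthinned) and in none of the 1928 thinned cells of Macrophage_1 (0.485% unthinned). S1pr1 was found in none of 403 thinned ILC2 (0.968% unthinned) and Zfp683 in none of 1023 thinned T_cell_3 cells (0.331% unthinned).

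In thinned T cells pooled over the datasets, Cd69 was read together with S1pr1 or Cd44 about as often as the separate shares give, though single datasets lay on either side. T cells with a UMI of both Cd69 and S1pr1 numbered 49, where 55.0 would follow from the shares in each cluster and library if the genes were independent, with ratios of 1.12, 1.02 and 0.819 in the datasets. Without Hamburg the ratio over the other datasets was 1.06. B cells with both numbered 84, against 86.2. Cd69 and Cd44 were read together in 72 T cells, against 73.9, and in 3 NK cells, against 8.99. Lef1 and S1pr1 were read together in 53 T cells, against 41.0, with ratios of 1.14, 1.38 and 1.27. S1pr5 and Zfp683 shared 0 T cells, against 0.253, and 0 NK cells, against 0.232, so that nothing can be read from this pair at this depth. These are counts of cells and carry no test.

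Over the mean levels in the 23 clusters, which share libraries and depth, the genes most like a member among 10660 compared were named by Pearson's r of log2(CPM + 10). S1pr4 was closest to Ptprcap (r = 0.964), Acap1 (0.962) and Fcho1 (0.955), and Zfp683 to Crybg2 (0.936), Ccdc136 (0.900) and Itga1 (0.888). Lef1 was closest to Fam78a (0.911), Tcf7 (0.901) and Pced1b (0.886). S1pr1 was closest to BE692007 (0.925), Dtx1 (0.918) and Gm30054 (0.914), each of which was highest in B_cell_3 as S1pr1 was. Cd69 was closest to Pde7a (0.902), Ppp1r13b (0.901) and Elf1 (0.899), S1pr5 to Nrarp (0.877), Gm38287 (0.821) and Cdc20b (0.778), and Cd44 to Coro1c (0.875), Fmnl1 (0.848) and Stat3 (0.836). Among the 7 genes themselves the highest values were those of Cd69 with S1pr4 (0.747), S1pr4 with Lef1 (0.634), Cd69 with S1pr1 (0.623) and S1pr1 with Lef1 (0.606), and the lowest was that of Cd69 with S1pr5 (-0.110).

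The design asks whether these genes differ between the compartments of the kidney. Counts were summed per library and class, the numbered clusters of a cell type forming a class, and the mean of OM and IM was compared with cortex in edgeR with the dataset as block, adjusting over all genes tested. Over 6 classes, 25 tests of the 7 genes could be made, and 2 passed an adjusted p of 0.05, both in myeloid cells: Cd69 was lower in medullary macrophages and Cd44 higher in medullary cDCs. No test in T cells, B cells, NK cells or ILC2 passed. At an unadjusted p below 0.05, 9 of the 25 tests passed. At that threshold 826 of all 8228 genes tested passed in resident macrophages and 829 of all 6757 in cDCs. For the lymphoid classes and single clusters below, also in the gene lists, no count over all genes at an unadjusted p is given. The same holds for the comparison of OM with IM and for that of medullary differences between classes. Their counts at that threshold therefore have no background beside them.

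**Figure D3:**
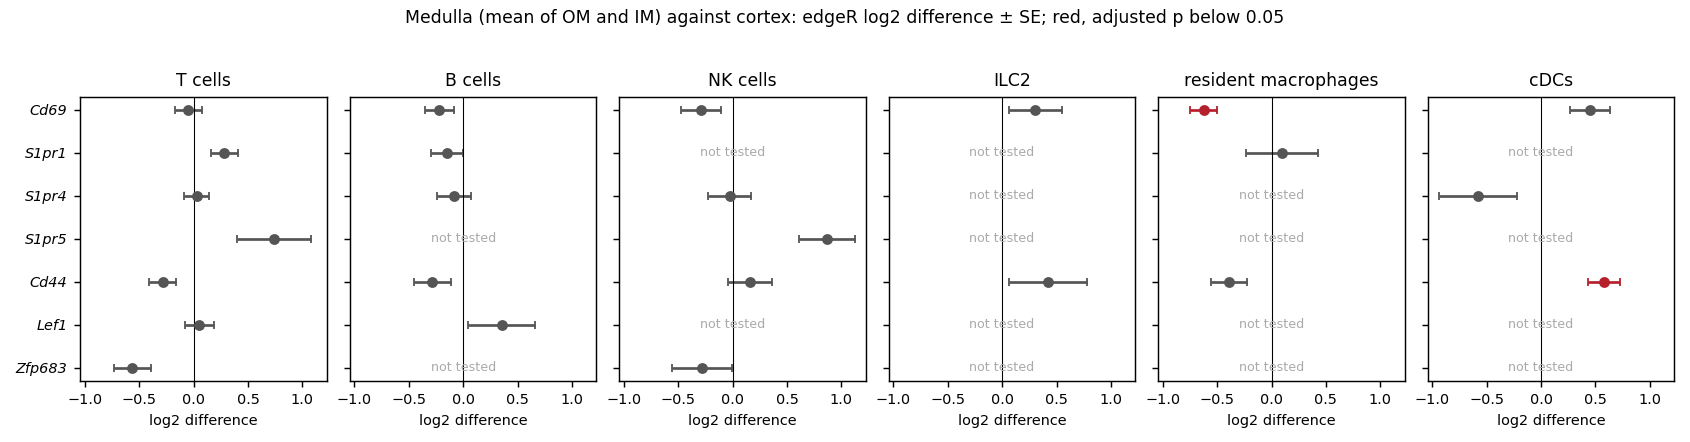
Difference between medulla and cortex (x axis, edgeR log2 difference ± SE over 9 libraries) of each gene (y axis) in the 6 classes; red marks an adjusted p below 0.05 and "not tested" a gene that did not pass the filter on low counts. The 2 red points are Cd69 in resident macrophages and Cd44 in cDCs.

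In T cells all 7 genes were tested, 4 above and 3 below 0, with 0 past the threshold in edgeR and 0 in DESeq2, and 4 at an unadjusted p below 0.05. Of all 8522 genes tested in T cells, 0.0117% passed. Zfp683 was at 11.2, 7.12 and 5.75 CPM in cortex, OM and IM of Aachen, at 93.6, 128 and 61.7 in Bonn and at 96.5, 53.5 and 44.4 in Hamburg. It was lower in both parts of the medulla in Aachen and Hamburg, while OM was the highest Bonn library, and the log2 difference was -0.56 ± 0.17 (edgeR adjusted p = 0.551). Without the Bonn dataset it was -0.94 (adjusted p = 0.0121), without the Bonn cortex library -0.93 (adjusted p = 0.00962), and without a filter on low counts -0.61 (adjusted p = 0.00449), whereas without the Hamburg dataset it was -0.14 and without the Hamburg cortex library -0.13 (edgeR adjusted p = 0.9998 and 0.9999).

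S1pr1 in T cells was at 63.7, 68.9 and 59.8 CPM in cortex, OM and IM of Aachen, at 91.8, 89.0 and 95.9 in Bonn and at 123, 167 and 183 in Hamburg. Only the Hamburg libraries lay clearly apart, and the difference of 0.28 ± 0.13 had an edgeR adjusted p of 0.822. Cd44 was at 116, 64.1 and 72.5 CPM in Aachen, at 131, 139 and 138 in Bonn and at 142, 107 and 102 in Hamburg, lower in the medulla in Aachen and Hamburg but not in Bonn (-0.28 ± 0.12, adjusted p = 0.802). S1pr5, read at 5.16 to 20.5 CPM, differed by 0.74 ± 0.34 (adjusted p = 0.837). Lef1 (0.05 ± 0.13) and S1pr4 (0.03 ± 0.11) were near 0 in edgeR, and either sign was found for both among the leave-one-out values.

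Cd69 in T cells was at 513, 406 and 457 CPM in cortex, OM and IM of Aachen, at 339, 429 and 467 in Bonn and at 856, 716 and 621 in Hamburg. Aachen and Hamburg were highest in cortex and Bonn lowest there, so that the difference was -0.05 ± 0.12 (edgeR adjusted p = 0.9997). The immediate early level followed the same order of compartments in each dataset, with 158, 106 and 134 UMIs per 10000 in the libraries of Aachen, 37.7, 62.0 and 75.1 in those of Bonn and 272, 246 and 210.4 in those of Hamburg, and its part in the Cd69 values was not tested.

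The share of single clusters among T cells moved with the compartment in some datasets. T_cell_3, the cluster high in Lef1 and S1pr1, made up 9.46, 20.1 and 11.1% of T cells in cortex, OM and IM of Aachen, 22.4, 19.5 and 17.9% in those of Bonn and 17.3, 29.2 and 28.8% in those of Hamburg. T_cell_1, the cluster highest in Zfp683, made up 51.5, 33.0 and 45.5% in the libraries of Aachen, 51.7, 44.9 and 49.8% in those of Bonn and 54.5, 33.3 and 30.4% in those of Hamburg. T_cell_1 was thus less frequent in both parts of the medulla in all 3 datasets, a difference that was not tested here.

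Within single lymphoid clusters, 29 tests of the 7 genes could be made, 0 passed in edgeR and 5 had an unadjusted p below 0.05. The share of all genes that passed was 0.192% in T_cell_1, 0.019% in T_cell_2, 0% in T_cell_3, 0.281% in T_cell_4, 0.145% in NK_cell_1, 0% in NK_cell_2 and 0.037% in B_cell_1. Zfp683 differed by -0.27 ± 0.18 within T_cell_1 and by -0.48 ± 0.26 within T_cell_2. Lef1 was lower in the medulla in all 3 datasets of T_cell_1 (-0.50 ± 0.18, edgeR adjusted p = 0.540) and differed by -0.04 ± 0.12 in T_cell_3, where its level was highest. S1pr1 was higher in the medulla in all 3 datasets of T_cell_2 (0.46 ± 0.19, edgeR adjusted p = 0.999) and differed by 0.07 ± 0.15 in T_cell_3.

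**Figure D4:**
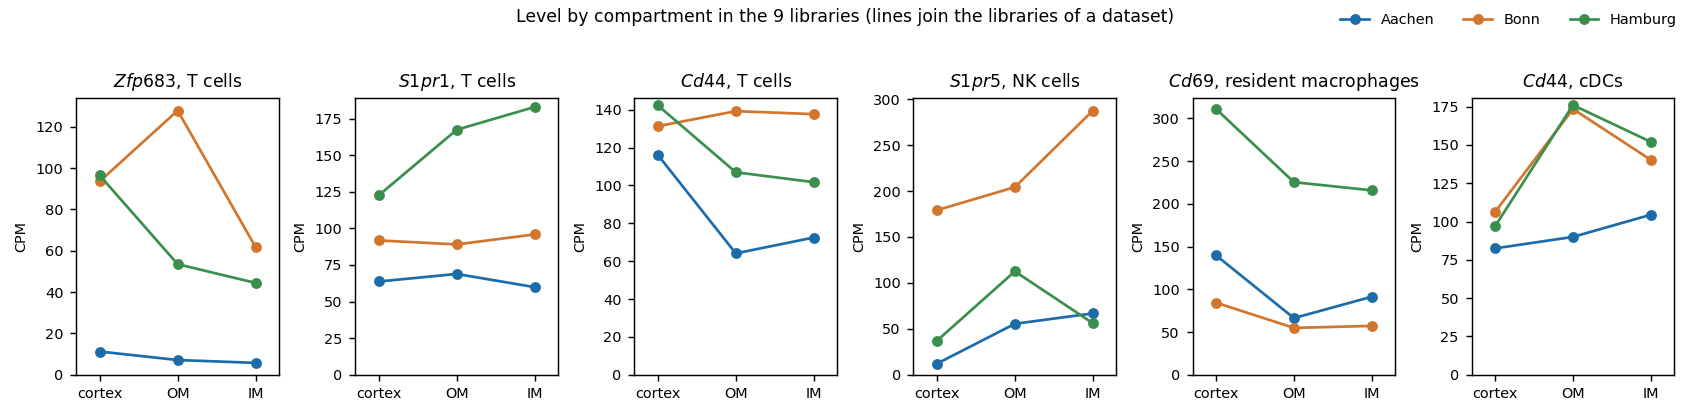
Level (y axis, CPM) of 6 combinations of gene and class in cortex, OM and IM (x axis); lines join the 3 libraries of a dataset. Cd69 of resident macrophages falls from cortex to both parts of the medulla in each dataset, and Cd44 of cDCs rises, whereas Zfp683 of T cells has no common order.

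In NK cells 5 genes were tested, 0 passed in edgeR and in DESeq2, and 1 had an unadjusted p below 0.05. Of all 2908 genes tested there, 0% passed. That gene was S1pr5, at 12.03, 55.5 and 66.8 CPM in cortex, OM and IM of Aachen, at 179, 204 and 288 in Bonn and at 36.9, 113 and 56.1 in Hamburg. Both parts of the medulla were above cortex in each dataset, and the log2 difference was 0.87 ± 0.25 (edgeR adjusted p = 0.504). Without the Bonn dataset it was 1.22 (adjusted p = 0.0359) and without the Bonn OM library, which rests on 19 cells, 1.16 (adjusted p = 0.00126), and without the Hamburg OM library 0.53 (adjusted p = 0.998). NK_cell_1, the cluster that holds S1pr5, made up 34.3, 68.4 and 64.6% of NK cells in the libraries of Aachen, 57.0, 36.8 and 68.3% in those of Bonn and 32.4, 60.1 and 50.7% in those of Hamburg. Within NK_cell_1 the difference of S1pr5 was 0.59 ± 0.28 (edgeR adjusted p = 0.9996), with the medulla higher in 3 of 3 datasets. In Bonn this medulla value is IM alone, since Bonn OM held 7 cells of the cluster and was left out. The part of the cluster shares in the value for all NK cells was not tested. Cd69 (-0.29 ± 0.18), Zfp683 (-0.28 ± 0.28), S1pr4 (-0.03 ± 0.20) and Cd44 (0.16 ± 0.20) did not pass.

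In B cells 5 genes were tested, 0 passed in edgeR and in DESeq2, and 0 had an unadjusted p below 0.05, while 0.0353% of all genes passed. S1pr1 was at 142, 213 and 124 CPM in cortex, OM and IM of Aachen, at 171, 153 and 155 in Bonn and at 239.5, 179 and 205 in Hamburg (-0.15 ± 0.15), without a common order. Cd69 was at 750.3, 364 and 432 CPM in Aachen, at 496, 549 and 555 in Bonn and at 918, 844 and 897 in Hamburg. The Aachen cortex library stood apart among them, and without it the difference moved from -0.22 ± 0.13 to 0.01. Cd44 was lower in the medulla in 3 of 3 datasets (-0.28 ± 0.17, edgeR adjusted p = 0.9998), S1pr4 differed by -0.08 ± 0.15 and Lef1 by 0.35 ± 0.31.

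In ILC2, which gave 12 to 95 cells per library, 2 genes were tested and 0 passed in edgeR and in DESeq2, with 0 at an unadjusted p below 0.05 and 0.0724% of all genes past the threshold. Cd69 was at 793, 478 and 641 CPM in cortex, OM and IM of Aachen, at 346, 703 and 708 in Bonn and at 1003, 1292 and 1321 in Hamburg. Medullary ILC2 were higher in Bonn and Hamburg and lower in Aachen (0.30 ± 0.24). Cd44 differed by 0.42 ± 0.36, and no UMI of it was found in the Aachen cortex ILC2.

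In resident macrophages (Macrophage_1 to Macrophage_3 and Isg+_Macrophage), 3 genes were tested and 1 passed, where 1.23% of all 8228 genes passed. Cd69 was at 139.9, 66.3 and 91.4 CPM in cortex, OM and IM of Aachen, at 84.4, 54.9 and 57.2 in Bonn and at 311, 225 and 216 in Hamburg. Cortex was highest in each dataset, and the log2 difference was -0.63 ± 0.12 (edgeR adjusted p = 0.0229, lower in 3 of 3 datasets). Cd44 differed by -0.39 ± 0.16 (adjusted p = 0.404, lower in 3 of 3 datasets) and S1pr1 by 0.10 ± 0.33 (adjusted p = 0.982).

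The call of Cd69 rested on the block and on most libraries: without the block the difference was -0.62 (edgeR adjusted p = 0.99999), with thinned cells -0.53 (0.474), without Bonn -0.66 (0.0624) and without Hamburg -0.71 (0.203). Macrophage_3, the cluster of resident macrophages with the lowest Cd69, made up 0, 44.7 and 1.17% of the class in cortex, OM and IM of Aachen, 7.05, 42.9 and 43.1% in those of Bonn and 0, 23.0 and 15.4% in those of Hamburg. Within Macrophage_1 alone the difference was -0.55 ± 0.19 (edgeR adjusted p = 0.293, lower in 3 of 3 datasets) and within Macrophage_2 -0.21 ± 0.18 (adjusted p = 0.9996, lower in 3 of 3). Macrophage_3 could not be fitted, since Aachen and Hamburg cortex held none of it. The 8 T cell markers summed to 0.109 to 2.43 UMIs per 10000 in cortex, 0.125 to 0.681 in OM and 0.0999 to 1.30 in IM, and the 6 B cell markers to 1.08 to 8.95, 1.33 to 3.98 and 1.12 to 5.06. All 4 tested T cell markers had lower values in the medulla, from -1.18 (Cd3d) to -1.94 (Cd3e, adjusted p = 0.124), with 0 past the threshold in edgeR, and 1 of 4 of the B cells passed (Cd79b, -0.79 ± 0.16). Both tested tubular markers rose in medullary macrophages (Kap, 3.01 ± 0.52, edgeR adjusted p = 0.0174, and Fxyd2, 3.88 ± 0.56, adjusted p = 0.00983). The 3 tested monocyte markers had values below 0 (Ccr2 -1.01, Plac8 -1.06 and Ly6c2 -1.33), with 0 past the threshold. Cd69 was at -0.69 (edgeR adjusted p = 0.0303) after leaving out cells in which T cell markers or B cell markers had at least 2 UMIs. Markers of NK cells and ILC2 were not used for this, and cells with fewer such UMIs remained. The immediate early level was 252, 173 and 159.8 UMIs per 10000 in the libraries of Aachen, 33.9, 49.8 and 131 in those of Bonn and 491, 440.3 and 485 in those of Hamburg, and 0 of these 14 genes passed in edgeR and in DESeq2, with 0 at an unadjusted p below 0.05. The part of these values in the Cd69 difference was not tested.

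In cDCs 3 genes were tested and 1 passed, where 1.88% of all 6757 genes passed. Cd44 was at 82.5, 90.0 and 104 CPM in cortex, OM and IM of Aachen, at 106, 173 and 140.2 in Bonn and at 96.9, 176 and 152 in Hamburg. Cortex was lowest in each dataset, and the log2 difference was 0.58 ± 0.15 (edgeR adjusted p = 0.0479, higher in 3 of 3 datasets). Cd69 differed by 0.45 ± 0.18 (adjusted p = 0.302) and S1pr4 by -0.58 ± 0.36 (adjusted p = 0.567).

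This call lay at the threshold and was lost with DESeq2 (0.58, adjusted p = 0.103), without the block (0.52, edgeR adjusted p = 0.99996), without Aachen (0.64, 0.0694), without Bonn (0.59, 0.169) and without Hamburg (0.48, 0.575). The cDC1 cluster, with 84.0 ± 21.3 CPM of Cd44 against 149.7 ± 26.1 in cDC2, made up 66.2, 20.6 and 35.9% of cDCs in cortex, OM and IM of Aachen, 40.3, 14.9 and 10.2% in those of Bonn and 55.8, 26.6 and 24.2% in those of Hamburg. Among the cDC markers all 3 of cDC1 were lower and 2 of 3 of cDC2 higher in the medulla, as Xcr1 (-1.21 ± 0.15) and Cd209a (0.88 ± 0.15). The tubular markers Kap (5.04 ± 0.78, edgeR adjusted p = 0.00202) and Fxyd2 (2.91 ± 0.52, adjusted p = 0.00524) rose in medullary cDCs, and 1 of 3 monocyte markers fell (Plac8, -0.85 ± 0.16, adjusted p = 0.00839). Within cDC2 alone Cd44 differed by 0.49 ± 0.20 (edgeR adjusted p = 0.848, higher in 3 of 3 datasets) and within cDC1 by 0.26 ± 0.27 (adjusted p = 0.9997). The part of the cluster shares and of these markers in the values for whole classes was not tested.

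**Figure D5:**
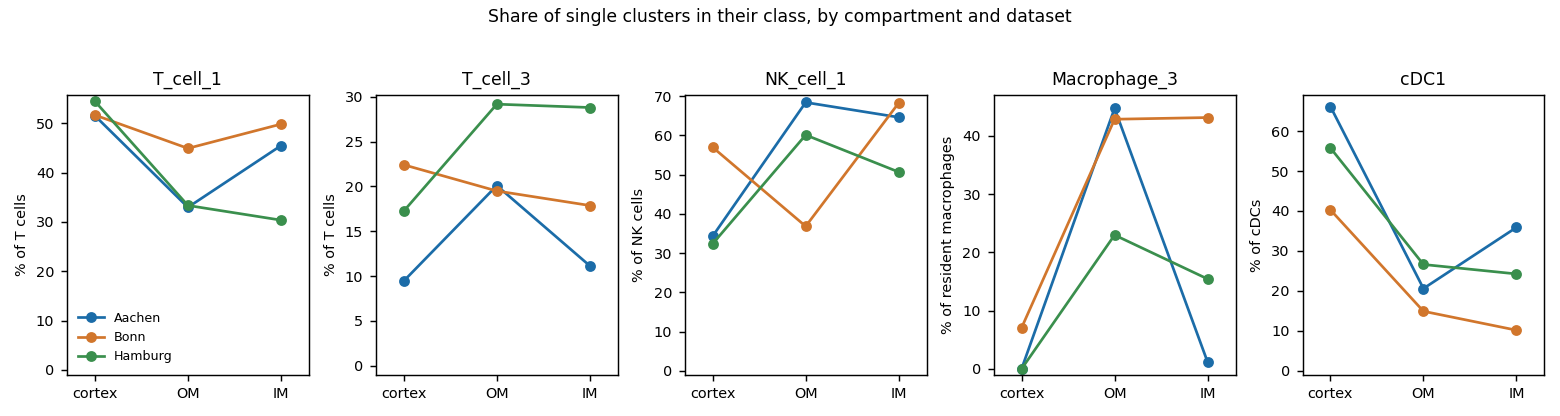
Share of a cluster among the cells of its class (y axis, percent) in cortex, OM and IM (x axis); lines join the 3 libraries of a dataset. Macrophage_3 and cDC1 move between cortex and medulla in the same direction in the 3 datasets, and NK_cell_1 is split between OM and IM in Bonn.

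OM and IM were compared in the same fits. Of 25 tests of the 7 genes 0 passed in edgeR and in DESeq2, and 1 had an unadjusted p below 0.05, Zfp683 in T cells (OM against IM 0.57 ± 0.24, adjusted p = 0.9999). The log2 differences ran from -0.27, of Cd44 in B cells, to 0.69, of S1pr4 in cDCs. The share of all genes that passed was 0% in T cells, 0.0235% in B cells, 0% in NK cells, 0% in ILC2, 0% in resident macrophages and 0.0592% in cDCs.

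Whether a medullary difference itself differed between classes was tested as an interaction. The difference of Cd69 was 0.57 ± 0.21 higher in T cells than in resident macrophages (edgeR adjusted p = 0.436), and that of S1pr4 1.73 ± 0.47 (adjusted p = 0.157), where macrophages held at most 11.2 CPM. At an unadjusted p below 0.05 these and 2 further genes (Lef1 and Zfp683) passed against macrophages, 1 (Zfp683) against B cells and 0 against NK cells. S1pr4, Lef1 and Zfp683 did not pass the filter on low counts in macrophages alone, nor Zfp683 in B cells alone. Macrophages held at most 11.9 CPM of Lef1 and 5.43 of Zfp683, and B cells at most 8.56 of Zfp683. Their interactions therefore rest on few counts, and no difference between classes can be read from them. None of the 7 genes passed adjustment in edgeR for T cells against resident macrophages, B cells or NK cells, where 0.105%, 0.0192% and 0% of all 10439 genes passed. The Cd69 call in macrophages is therefore not shown to differ from the value in T cells, and it was not tested against those in B cells, NK cells or ILC2. Against cDCs it was tested after the data had been seen. The Cd69 difference was 1.03 ± 0.24 higher in cDCs than in macrophages (edgeR adjusted p = 0.0762) and did not pass. The adjusted p was 0.0113 without Bonn, 0.0855 without Aachen and 0.925 without Hamburg. The Cd44 call in cDCs was not tested against T cells, NK cells or ILC2.

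Genes of the same pathways were followed in lists. In T cells, B cells, NK cells and ILC2 together, 0 of 56 tests of the residency list, 0 of 51 of the circulation list, 0 of 29 of the S1P pathway list and 0 of 29 of the list of CD44 partners and other adhesion genes passed in edgeR or in DESeq2 between medulla and cortex. At an unadjusted p below 0.05 these counts were 7, 7, 1 and 2, with no count over all genes beside them, so that no excess can be read from them. In T cells, the 20 residency genes had a median log2 difference of -0.08 and the 17 circulation genes of 0.12, beside 0.00 over all genes. In resident macrophages, where 1.23% of all genes passed, 1 of 16 tested residency genes rose in the medulla, Ahr, a ligand-activated transcription factor (1.25 ± 0.26, adjusted p = 0.0341), and 1 of 9 adhesion genes fell, Itgal, a subunit of the integrin LFA-1 (-1.11 ± 0.23, adjusted p = 0.0342). In cDCs, where 1.88% of all genes passed, 1 of 13 circulation genes rose, Foxp1, a transcription factor of naive lymphocytes (0.56 ± 0.14, edgeR adjusted p = 0.0381), and 1 of 9 genes of the S1P pathway, Plpp1, a phosphatase that degrades lipid phosphates such as S1P, fell by 1.55 on the log2 scale (± 0.32, adjusted p = 0.0131). Of 9 adhesion genes 1, Spp1, which encodes the CD44 ligand osteopontin, fell in cDCs by 1.10 on the log2 scale (± 0.25, edgeR adjusted p = 0.0256). DESeq2 called none of these 5 genes.

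The other genes of the S1P pathway were followed across clusters too. Sphk1, which makes S1P, reached at most 0.323 CPM in any cluster, and Mfsd2b, an exporter of S1P, at most 0.671. Sphk2 was highest in B_cell_3 at 52.2 CPM, the exporter Spns2 in B_cell_3 at 26.0 and the S1P lyase Sgpl1 in Malat+_Macrophage at 82.3. The receptor gene S1pr2 was highest in Malat+_Macrophage at 30.7 CPM, and S1pr3 reached at most 3.32, in B_cell_2.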

How the data were processed

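Living CD45+ cells of mouse kidney were profiled with 10x Genomics droplets, and per the labels reads were aligned and counted with Cell Ranger on mm10 and handled in Seurat. The authors removed cells outside 200 to 4000 detected genes or above 20% of mitochondrial UMIs, and named clusters from reference profiles and markers. The deposited values are expected counts: UMIs per gene and cell, whole in Aachen and Bonn and estimated, slightly below whole numbers, in Hamburg. They were summed per library and class or cluster and rounded. Libraries and clusters under 10 cells were left out. The compartments correspond to the sample labels, and the dataset of each cell was taken from the deposited cell table.

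Sums were tested with edgeR 4.0.16 (quasi-likelihood, TMM factors, filterByExpr, dataset as block, Benjamini-Hochberg over all genes tested, threshold 0.05) in R 4.3.3 with limma 3.58.1. The alternatives were DESeq2 1.42.0, other size factors, no filter, no block, thinned cells, whole UMIs, removal of cells with 2 or more UMIs of another lineage, and each dataset or library left out. No doublet caller was run. Steps were tested on simulated data. Python 3.11.15, numpy 2.4.6, pandas 2.3.3 and scipy 1.17.1 were used otherwise. Because mice per library are not given in the sources used here, p-values measure the spread between these libraries.

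The 7 genes, the gene lists and the alternatives were chosen with earlier results of these data known. Named beyond the 7 genes were list members and, for each gene, the 3 others with the highest correlation over clusters among genes with a mean of at least 20 CPM in 1 cluster. Gene positions are from GENCODE on GRCm38, and promoter sequences from RefSeq on GRCm38.p6.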

Additional observations from a re-analysis of the deposited data

Results flagged for a closer look

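For Cd44, the mean of OM and IM was above cortex in all 3 datasets of cDCs and below it in all 3 datasets of resident macrophages and of B cells. The difference between the medullary log2 differences was 0.95 ± 0.21 for cDCs against resident macrophages (edgeR adjusted p = 0.0591) and 0.86 ± 0.23 for cDCs against B cells (edgeR adjusted p = 0.649). Neither passed the threshold. Over the datasets left out in turn the first lay between 0.85 and 1.04, with adjusted p from 0.0200 without Aachen to 0.804, and the second between 0.83 and 0.91. These interactions were added after the data had been seen.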

How the results depend on the processing

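The lower Cd69 of medullary macrophages kept its direction in all 21 alternatives and passed the threshold in 10. It was -0.62 with no replicate block, -0.53 with thinned cells, -0.55 within Macrophage_1 and -0.21 within Macrophage_2, and -0.71 to -0.54 when a dataset or library was left out; the call was lost without Bonn or Hamburg and without the Aachen, Bonn or Hamburg cortex or the Hamburg OM or IM library. The higher Cd44 of medullary cDCs kept its direction in 20 alternatives and passed in 3. It was 0.56 without a filter, 0.58 with DESeq2, 0.52 with no replicate block, 0.53 without cells of another lineage, 0.26 within cDC1, 0.49 within cDC2 and 0.48 to 0.64 in the leave-one-out fits; thinned cDCs gave no value, since Cd44 did not pass the filter. Fits within a cluster and without single libraries were chosen after seeing the data. The cause of these losses was not tested.

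The count of the 7 genes past the threshold was 1 in T cells without a filter, and 0 to 1 in T cells and in NK cells with a dataset or library left out. It stayed 0 for B cells and ILC2. With a dataset left out, it also stayed 0 for OM against IM, single clusters and differences between T cells and other classes. Between cDCs and resident macrophages, Cd44 passed without Aachen (edgeR adjusted p = 0.0200) and Cd69 without Bonn (edgeR adjusted p = 0.0113). S1pr4 turned to -0.021 in T cells without a filter and to 0.0056 in B cells without cells of another lineage. With a dataset or library left out, either sign was found for Cd69 (-0.28 to 0.12), S1pr4 (-0.067 to 0.066) and Lef1 (-0.13 to 0.32) in T cells, Cd69 (-0.42 to 0.017), S1pr1 (-0.26 to 0.0033) and S1pr4 (-0.22 to 0.32) in B cells, S1pr4 (-0.11 to 0.025) and Cd44 (-0.022 to 0.40) in NK cells and S1pr1 (-0.33 to 1.01) in macrophages. The ratio of T cells with both Cd69 and S1pr1 to their expected number ran from 0.856 to 1.06. Thinned to 1000 UMIs, the shares were 23.7% for S1pr1 in B_cell_3, 11.3% for S1pr4 in B_cell_2, 47.3% for Cd44 in neutrophils and 41.5% for Lef1 in T_cell_3.

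Over all genes, 101 passed in macrophages and 127 in cDCs; with no replicate block 0 and 0 passed in edgeR (109 and 130 at an unadjusted p below 0.05), with DESeq2 47 and 55, without a filter 382 and 272, with thinned cells 25 and 30, and without Hamburg 6 and 0. The labels carry no replicate numbers, and the dataset was the block.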
